A study of Mus musculus with 3 samples.

Results

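The CD64+ macrophages of the mouse colon were described by the genes whose level stood apart from both other myeloid populations sequenced beside them. A gene was a member when its log2(FPKM + 1) in macrophages lay at least 2 above, or at least 2 below, both other libraries, and when the higher library or libraries reached 10 FPKM. FPKM divides a gene's fragments by the length of its transcript in kilobases and by the size of the library, so levels of different genes can be compared per length. Of 24346 gene symbols, 17329 reached 1 FPKM in at least 1 library and were compared. Of these, 149 (0.86%) were higher in macrophages than in both others and 10 (0.0577%) were lower. These values chose the members, so they are given as a description and not as a test.

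The study sequenced RNA of myeloid cells sorted from the colons of BALB/c mice that were healthy, and its title concerns the ectoenzyme E-NTPD8 and the ATP-gated channel P2X4. The 3 populations were CD64- dendritic cells (DC), CD64+ macrophages (MΦ in the labels) and Gr-1+ CD11b+ cells (cell type Neutrophil_monocyte), called Gr-1+ cells below. All 3 share strain and tissue, and no agent or allele is named for any. The sources used here give neither the age of the mice nor the number that went into a library. Each population was 1 library, so no difference has a replicate check and no p-value is given. In bulk RNA, fewer cells of a type and less RNA per cell cannot be told apart. Both comparisons use the same macrophage library and are given side by side. Wherever 3 levels follow each other, the first is of DC, the second of macrophages and the last of Gr-1+ cells. Where a pair of differences is given, macrophages minus DC comes first and macrophages minus Gr-1+ cells second, on the log2(FPKM + 1) scale.

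Intestinal macrophages are replenished largely from blood monocytes that enter through the chemokine receptor CCR2 and mature in the lamina propria. Mature cells carry CD64 (the high-affinity IgG receptor, gene Fcgr1) and CX3CR1, take up dead cells and bacteria, secrete complement component C1q and produce interleukin 10. Their survival depends on the receptor for colony stimulating factor 1, and their degradation of engulfed material depends on lysosomal proteases and lipid export.

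The libraries differed in depth and in background. From the steps of low values, the DC and macrophage libraries were 3.62 and 2.69 times as deep as the library of Gr-1+ cells, and 3 fragments on a 1 kb transcript corresponded to 0.373 (DC), 0.501 (macrophages) and 1.35 FPKM (Gr-1+ cells). The labels name no molecular identifiers for these amplified libraries, so the limits cover counting error only. The 95th percentile of 1445 olfactory and vomeronasal receptor genes, which myeloid cells are not known to use, was 0.610, 3.23 and 9.67 FPKM in the same order, and is called the silent level here. Scaling the libraries another way moved the median of all genes. With equal sums it moved by -0.25 for macrophages minus DC, with median ratios by -0.17 for macrophages minus Gr-1+ cells, and with equal 75th percentiles by 0.10 and -0.45. The DC library also held lymphoid transcripts: the 16 B cell markers summed to 4254 FPKM there, 199 in macrophages and 102 in Gr-1+ cells, and the 10 plasma cell markers to 21429, 1374 and 636.

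**Figure D1:**
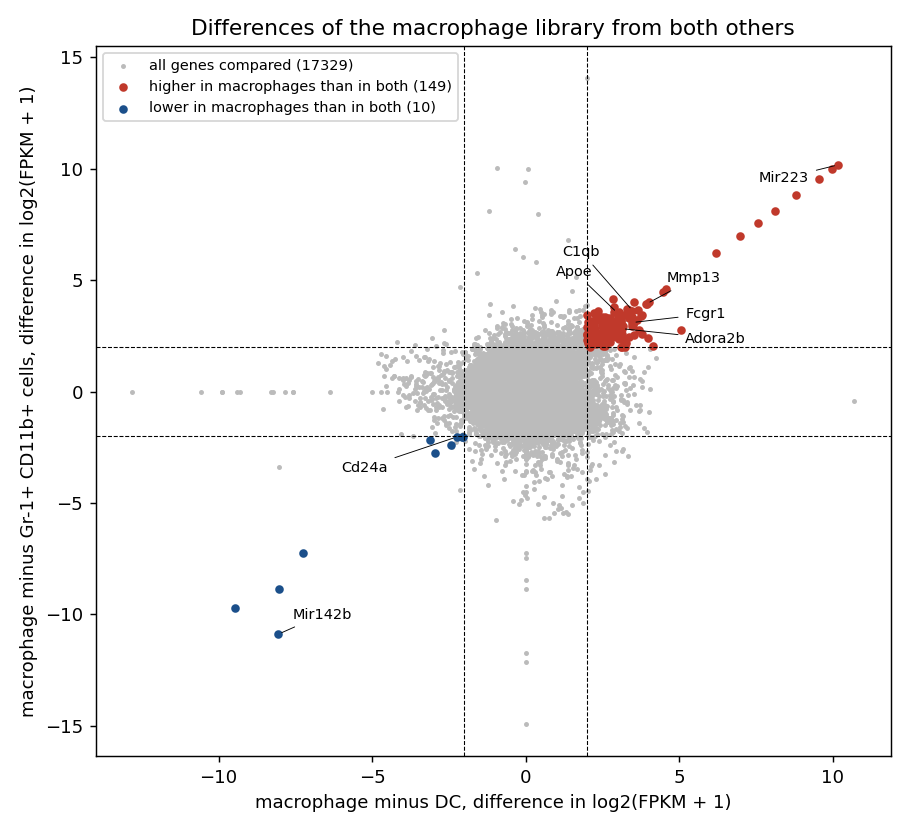
Each point is 1 of 17329 genes, placed by its difference in log2(FPKM + 1) between macrophages and DC (x axis) and between macrophages and Gr-1+ CD11b+ cells (y axis). Dashed lines mark the limit of 2 in each direction. The 149 higher members lie in the upper right corner and the 10 lower members in the lower left.

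Of the 149 higher members, 135 had a gene name and 14 had symbols that are codes, among them 6 microRNA hairpins and 4 small nucleolar RNAs. Against a single population the rule was met more often: 401 genes (2.31%) were higher than in DC and 591 (3.41%) were higher than in Gr-1+ cells, while 266 (1.53%) and 244 (1.41%) were lower. The 135 named higher members together made up 10.4% of the FPKM sum of the macrophage library, 1.73% in DC and 1.36% in Gr-1+ cells. Macrophages listed 68 of the 135 named members at 100 FPKM or more and 10 at 1000 or more. DC had the next highest level for 86 named members and Gr-1+ cells for 49. The 86 include Defb35 and Hotairm1, which were listed at 0 in both and were counted with DC. In DC, 131 of the 135 lay above that library's silent level, and in Gr-1+ cells 81 did.

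The population carried the markers of its label. Fcgr1 (chr3:96282909-96293969), the gene of the CD64 protein used for the sort, was listed at 9.23 in DC, 113 in macrophages and 12.3 FPKM in Gr-1+ cells. Of 25 macrophage markers, 15 were higher in macrophages than in both others and 24 were highest there. Over all 17329 genes compared, 149 (0.86%) were higher than in both and 3366 were highest in macrophages. Counts for the lists below stand beside these same shares. Their median difference was 2.53 from DC and 3.01 from Gr-1+ cells, beside 0.05 and -0.10 over all genes compared. Under the 3 other scalings, 13, 13 and 12 of the 25 passed. Among the markers short of the rule were the efferocytosis receptor Mertk (1.94, 11.4 and 3.18 FPKM) and the haemoglobin scavenger receptor Cd163 (4.55, 16.7 and 4.33). The lysosomal glycoprotein gene Cd68 was abundant but also missed it, at 201, 1151 and 354 FPKM. Timd4, a receptor of long-lived resident macrophages, was close in DC and macrophages at 9.83 and 13.3 FPKM and was 1.41 in Gr-1+ cells. Cd72, a receptor best known from B cells, was the only marker not highest in macrophages, at 311 in DC, 137 in macrophages and 11.8 FPKM in Gr-1+ cells.

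**Figure D2:**
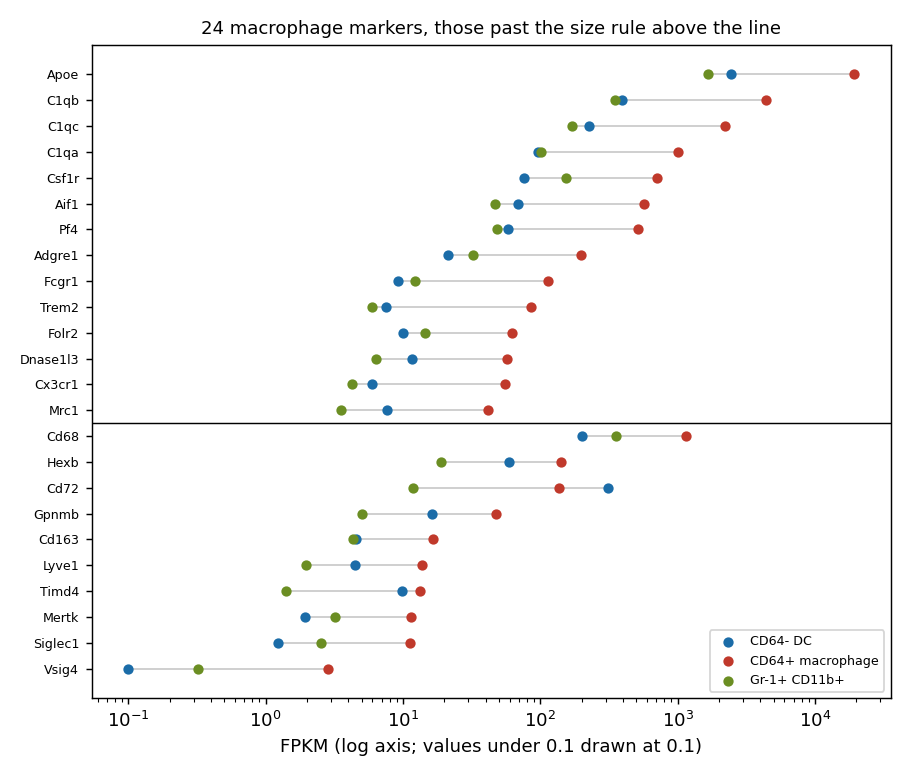
FPKM on a log axis of 24 of the 25 macrophage markers in the 3 libraries, with values under 0.1 drawn at 0.1. The 14 markers above the horizontal line passed the rule. Macrophages hold the highest value for every marker drawn except Cd72.

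Complement genes were among the members farthest above both other populations. The 3 chains of C1q, the recognition molecule of the classical pathway, were all members. C1qb (chr4:136880129-136886187) was listed at 393 in DC, 4403 in macrophages and 352 FPKM in Gr-1+ cells, 11.2-fold and 12.5-fold lower outside macrophages. C1qc stood at 225, 2212 and 169 FPKM and C1qa at 96.3, 1008 and 102. In each of the other populations all 3 chains kept the order C1qb, C1qc, C1qa. C3ar1, the receptor for the anaphylatoxin C3a, was listed at 9.003, 113 and 13.2 FPKM. Cfb, the protease of the alternative pathway, was listed at 22, 299 and 42.5. Of 25 complement genes compared, 6 were higher than in both others, 8 were higher than in DC, 7 were higher than in Gr-1+ cells and 14 were highest in macrophages. The list's median differences were 1.14 and 0.41, and the second was -0.15 with equal 75th percentiles. Under the 3 other scalings, 5, 6 and 6 of the 25 passed. C5ar1, the receptor for C5a, had its highest level in Gr-1+ cells, at 35.1, 462 and 1212 FPKM.

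The sequence before the start of C1qc is shown because the myeloid factor PU.1 is known for its GAGGAAGT motif, and this window holds those letters. The 250 bases lie at chr4:136892915-136893164, minus strand, from RefSeq on GRCm38.p6, with the match in capitals on the reverse strand, 195 bases before the start.
C1qc: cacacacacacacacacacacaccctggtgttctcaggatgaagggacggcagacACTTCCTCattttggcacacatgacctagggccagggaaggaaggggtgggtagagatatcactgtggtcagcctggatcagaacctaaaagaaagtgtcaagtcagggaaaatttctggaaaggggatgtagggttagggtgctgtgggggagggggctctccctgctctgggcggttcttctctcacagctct

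The group of immune receptors and related genes gave 14 members. Fcgr2b, the inhibitory IgG receptor, was the most abundant of them at 170 in DC, 971 in macrophages and 97.5 FPKM in Gr-1+ cells. The Fc receptor-like genes Fcrls (8.61, 61.4 and 6.43 FPKM) and Fcrlb (1.54, 20.7 and 4.42) were also members. Of 20 Fc receptors and adaptors compared, 3 (Fcgr1, Fcgr2b and Fcrls) were higher than in both others, with list medians of 0.99 and 0.09, the second -0.51 with equal 75th percentiles. Clec4a3, a C-type lectin receptor, was listed at 34.5, 479 and 45.3 FPKM, and its relatives Clec4a1 (9.59, 122 and 13.2) and Clec4a2 (7.09, 76.7 and 16.3) lay lower. Slamf8, a self-binding receptor of myeloid cells, was listed at 27.7, 183 and 23.96 FPKM. Lair1, an inhibitory collagen receptor, was listed at 11.5, 99.6 and 17.9. Tlr12, a Toll-like receptor for profilin of protozoa, was listed at 2.72, 21.01 and 1.997. Clec4a2, Lair1 and Fcrlb did not pass under every scaling. Of 40 pattern recognition receptors compared, 5 passed against both, 17 against DC and 10 against Gr-1+ cells.

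Trem2, a lipid-sensing receptor that signals through DAP12, was listed at 7.54 in DC, 86.3 in macrophages and 5.92 FPKM in Gr-1+ cells. Of 36 receptors of the TREM, CD300, Siglec and LILR families, 20 were higher than in DC, 5 were higher than in Gr-1+ cells and 3 were higher than in both. The list's medians had opposite signs, 2.11 from DC and -0.23 from Gr-1+ cells, while those of all genes were 0.05 and -0.10. The 250 bases before the start of Trem2, chr17:48346151-48346400, plus strand, hold the letters searched for AP-1, TGANTCA, 9 bases before the start, in capitals. The search allowed any central base. The stretch here reads TGAATCA, with A where AP-1 sites usually have C or G. The 250 bases are shown because Trem2 was among the 20 named members farthest above both others.
Trem2: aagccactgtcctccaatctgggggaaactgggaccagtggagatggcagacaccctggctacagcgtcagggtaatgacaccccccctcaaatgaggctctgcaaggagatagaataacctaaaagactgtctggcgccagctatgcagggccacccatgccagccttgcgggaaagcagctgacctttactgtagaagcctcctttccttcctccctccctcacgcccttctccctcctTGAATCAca

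The MS4A genes, which encode tetraspanning membrane proteins and lie side by side on chromosome 19, gave 4 members out of 11 compared. Ms4a6d was listed at 52.6 in DC, 734 in macrophages and 67.8 FPKM in Gr-1+ cells. Ms4a7, often used as a macrophage marker, was listed at 35.3, 386 and 30.3. Ms4a6c (109, 623 and 124 FPKM) and Ms4a6b (54.6, 344 and 43.1) were less far apart, and Ms4a6c did not pass under every scaling. The list's median differences were 1.496 and 1.19.

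Genes for scavenging and adhesion gave 11 members. Msr1, scavenger receptor A, was listed at 16.5 in DC, 217 in macrophages and 22.2 FPKM in Gr-1+ cells. Axl, a receptor kinase for apoptotic cells, was listed at 11.4, 78.3 and 11.4, so both other libraries gave the same level. Itgb5, the integrin chain that pairs with αv to bind apoptotic cells, was listed at 14.3, 126 and 13.5. Adgre1, the gene of the F4/80 antigen, stood at 21.4, 197 and 32.5 FPKM. Vcam1, an adhesion molecule for leukocyte integrins, stood at 20.8, 170 and 19.7. The mannose receptor gene Mrc1 was lower in level, at 7.70, 41.7 and 3.55, as were the folate receptor gene Folr2 (10.01, 62.4 and 14.5) and the scavenger receptor gene Stab1 (2.91, 16.0 and 1.57). Of 33 genes for efferocytosis and scavenging compared, 6 were higher than in both others, with list medians of 1.42 and 1.02. With equal sums 3 of the 6 passed, and Stab1, Mrc1 and Cxcl16 did not pass under every scaling. The remaining members of the group were Dab2, a clathrin adaptor (23.0, 105 and 12.3 FPKM), Adgre4, a relative of F4/80 (3.90, 27.8 and 4.57), and the integrin chain gene Itga9 (1.88, 14.7 and 2.50). Adgre1, Folr2, Dab2, Adgre4 and Itga9 did not pass under every scaling either.

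Chemokine genes gave 7 members, and in all 7 DC held the next highest level. Ccl8 was the most abundant, at 445 in DC, 2086 in macrophages and 311 FPKM in Gr-1+ cells. Ccl7 was listed at 211, 848 and 113, and Ccl12 at 31.9, 253 and 30.6. Ccl7 and Ccl12 are monocyte attractants of the CCR2 ligand group, and all 3 genes are neighbours on chromosome 11. Ccl5, an attractant of T cells, was listed at 156, 634 and 71.0, Ccl9 at 32.4, 256 and 28.8, and Cxcl16, which also acts as a scavenger receptor, at 107, 554 and 44.5. Pf4, known from platelets and a marker of tissue macrophages, was farthest apart, at 58.4, 516 and 48.5 FPKM. Of 33 chemokines compared, 15 were higher than in DC and 9 were higher than in Gr-1+ cells, and the median differences were 1.58 and 0.29, the second -0.25 with equal 75th percentiles. The neutrophil attractants Cxcl2 (107, 975 and 2110 FPKM) and Cxcl3 (12.7, 58.7 and 605) were higher in Gr-1+ cells than in macrophages. With equal sums 3 of the 7 passed, and Ccl5, Ccl7, Ccl8 and Cxcl16 did not pass under every scaling.

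The window before Pf4, chr5:90772185-90772434, plus strand, holds the PU.1 letters on the reverse strand 10 bases before the start, the nearest of the promoters shown with this motif.
Pf4: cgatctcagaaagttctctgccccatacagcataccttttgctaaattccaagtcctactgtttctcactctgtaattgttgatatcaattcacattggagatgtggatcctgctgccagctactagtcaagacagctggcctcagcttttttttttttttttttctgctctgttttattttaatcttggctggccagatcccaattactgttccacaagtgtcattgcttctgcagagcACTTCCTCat

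The chemokine receptors of monocytes and macrophages were members as well. Ccr2 was listed at 27.6 in DC, 247 in macrophages and 25.8 FPKM in Gr-1+ cells. Cx3cr1, the fractalkine receptor, was listed at 5.97, 55.0 and 4.23. Cmklr1, the chemerin receptor, was close to 1 FPKM outside macrophages, at 0.753, 14.8 and 1.05. Both Ccr2, a receptor of incoming monocytes, and Cx3cr1, a receptor of mature intestinal macrophages, thus stood above both other libraries in the same sample. Of 30 chemokine and chemoattractant receptors compared, 4 passed against both, 9 against DC and 5 against Gr-1+ cells, with 7 and 3 lower.

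Receptors for nucleotides, lipids and protons gave 7 members. Adora2b (chr11:62248984-62266453), the low-affinity adenosine receptor, was listed at 23.6 in DC, 215 in macrophages and 29.5 FPKM in Gr-1+ cells. P2ry6, the UDP receptor, was listed at 7.50, 58.8 and 9.95, and P2rx7, the ATP-gated channel of inflammasome activation, at 7.21, 31.9 and 5.54. These were the 3 members among 32 purinergic genes compared, whose median differences were 0.67 and -0.40. P2rx7 and P2ry6 did not pass under every scaling, and Adora2b did. P2rx4, the gene of the P2X4 channel in the study's title, was highest in macrophages at 73.4, 203 and 25.9 FPKM but lay short of the rule against DC. Entpd8, the gene of E-NTPD8, was listed at 1.21, 0.487 and 1.13 FPKM, which is below the silent level in macrophages and in Gr-1+ cells. Gpr34, a lysophosphatidylserine receptor, was listed at 2.75, 26.3 and 0.936. Cysltr1, a leukotriene receptor, was listed at 3.76, 28.9 and 2.85, and Gpr65, an acid-sensing receptor, at 40.3, 172 and 33.4. Gpr65 did not pass under every scaling.

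Among cytokines and growth factors, 5 genes were members. Il10, the anti-inflammatory cytokine of intestinal macrophages, was listed at 14.8 in DC, 94.2 in macrophages and 11.6 FPKM in Gr-1+ cells. It was the only member among 36 cytokines compared, of which 14 were higher than in DC and 2 were higher than in Gr-1+ cells. The inflammatory cytokine gene Il1b, by contrast, was listed at 1894, 11637 and 13362 FPKM, and Tnf at 20.4, 218 and 105. Csf1r, the receptor on which macrophage survival depends, stood at 76.5, 714 and 153, and did not pass under every scaling. Nrg1, an epidermal growth factor family ligand, was listed at 1.52, 33.8 and 4.80, Pgf, a ligand of the VEGF receptor family, at 10.1, 69.0 and 5.99, and the stress-induced factor gene Gdf15 at 15.8, 122 and 19.5. Of 42 growth factors and receptors compared, 2 (Csf1r and Gdf15) were higher than in both others.

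Lysozyme and lipid carrier genes gave the highest levels of the macrophage library's members. Lyz2, the myeloid lysozyme, was listed at 2580 in DC, 29604 in macrophages and 5060 FPKM in Gr-1+ cells. Lyz2 did not pass under every scaling. Its near-identical neighbour Lyz1 was listed at 287, 2340 and 271, and fragments shared between the pair may have been assigned to either. Apoe (chr7:19696109-19699188), the lipid carrier protein, was listed at 2446, 19321 and 1657 FPKM, a difference of 2.98 and 3.54 on the log2(FPKM + 1) scale. Apoc2, the lipoprotein lipase cofactor encoded near Apoe, was listed at 11.6, 222 and 52.3. Pltp, a phospholipid transfer protein, stood at 65.8, 334 and 30.2, and Nr1h3, the sterol-sensing receptor LXRα, at 4.54, 24.9 and 3.85. Of 35 lipid genes compared, 6 were higher than in both others and 25 were highest in macrophages, with medians of 1.07 and 1.02. With equal sums 3 of the 6 passed, and Apoe and Trem2 were the members of the list that passed under every scaling.

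Among genes for lysosomal degradation, the cysteine protease Ctss was the most abundant after lysozyme, at 1028 in DC, 4512 in macrophages and 497 FPKM in Gr-1+ cells. Ctsc, the protease that activates granule serine proteases, was listed at 248, 1791 and 203. Psap, the sphingolipid activator precursor, was listed at 632, 2613 and 443, and the asparaginyl protease gene Lgmn at 132, 685 and 68.6. Aoah, which deacylates bacterial lipopolysaccharide, was listed at 6.47, 84.5 and 4.29, and its smaller difference, 3.52, was the largest of this group. Renbp (27.5, 151 and 15.3 FPKM) and Npl (8.62, 63.9 and 7.96) act on sialic acid and its precursors, and the endonuclease gene Dnase1l3 (11.7, 57.7 and 6.33) serves the clearance of DNA from dead cells. Of 43 lysosomal genes compared, 5 were higher than in both others, 10 were higher than in DC, 15 were higher than in Gr-1+ cells and 36 were highest in macrophages. The median differences were 1.195 and 1.70. With equal sums 1 of the 5 passed, and Ctss, Lgmn, Psap and Asah1 did not pass under every scaling. Neither did Dnase1l3.

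The window before Ctsc, chr7:88277835-88278084, plus strand, holds the PU.1 letters on the reverse strand 151 bases before the start.
Ctsc: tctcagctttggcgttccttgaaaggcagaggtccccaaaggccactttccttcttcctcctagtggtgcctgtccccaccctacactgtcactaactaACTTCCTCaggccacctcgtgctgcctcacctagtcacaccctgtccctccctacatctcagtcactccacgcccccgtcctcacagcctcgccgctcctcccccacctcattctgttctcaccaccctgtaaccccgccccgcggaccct

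Genes for extracellular proteases, matrix and coagulation gave 10 members. Mmp13 (chr9:7272514-7283331), a collagenase, was, by the smaller of its differences, the farthest above both others of the named members that reached 1 FPKM in all libraries. It was listed at 4.47 in DC, 83.3 in macrophages and 4.48 FPKM in Gr-1+ cells. Its difference was 3.94 from each. Mmp12, the macrophage elastase encoded next to it, was listed at 6.30, 53.1 and 3.60, and the membrane-bound Mmp14 at 24.95, 182 and 27.1. Of 33 matrix protease genes compared, 4 were higher than in both others, 11 were higher than in DC and 7 were higher than in Gr-1+ cells. F13a1, the transglutaminase that crosslinks fibrin, was listed at 17.0, 131 and 19.4. The clotting factor genes F10 (4.57, 88.3 and 16.1 FPKM) and F7 (1.41, 12.7 and 1.68), which are neighbours on chromosome 8, were both members. Neither F10 nor F7 passed under every scaling. The AP-1 letters lie 35 bases before the start of Mmp13, in capitals in the window chr9:7272264-7272513, plus strand.
Mmp13: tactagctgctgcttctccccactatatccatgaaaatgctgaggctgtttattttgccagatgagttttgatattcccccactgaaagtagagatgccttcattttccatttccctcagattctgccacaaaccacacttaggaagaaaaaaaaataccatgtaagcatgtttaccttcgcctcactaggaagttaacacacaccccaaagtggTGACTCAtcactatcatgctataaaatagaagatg

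Of 58 transcription factors of myeloid cells compared, 4 were higher in macrophages than in both others. Spic, a factor of haem-responsive macrophages, was listed at 3.04 in DC, 32.6 in macrophages and 5.63 FPKM in Gr-1+ cells, Zeb2 at 3.54, 17.5 and 2.95, and Nr1h3 as given above. Spic, Zeb2 and Nr1h3 did not pass under every scaling. Spi1, the gene of PU.1, was highest in Gr-1+ cells, at 203, 602 and 847 FPKM. Members outside these groups included Aif1, an actin-binding protein of macrophages, at 68.7, 569 and 47.1, and Sepp1 (Selenop), the plasma selenium carrier, at 117, 812 and 93.4. Ocstamp, a fusion protein of osteoclasts, was listed at 17.8, 135 and 6.56. Hfe, the haemochromatosis protein that tunes iron uptake, was listed at 22.4, 98.5 and 17.0, and Sgk1, a salt- and glucocorticoid-induced kinase, at 41.6, 275 and 58.1. The eicosanoid enzyme genes Tbxas1 (15.5, 121 and 12.5 FPKM) and Ptgs1 (8.64, 75.1 and 9.66) were members, and both act in thromboxane synthesis. The interferon-inducible GTPase genes Gbp2b (5.07, 65.7 and 7.71) and Gbp8 (7.85, 48.9 and 5.09) were members. Ikbke, a kinase of interferon induction, was listed at 6.01, 40.7 and 9.23. Hfe, Sgk1 and Ikbke did not pass under every scaling. The 39 members outside all role groups, 4 of them with code symbols, ranged from 14.3 to 1262 FPKM in macrophages, with smaller differences from 2.004 to 3.20, and DC held the next highest level for 29 of them. Farthest above both was Tmem37, a calcium channel subunit, at 14.7, 143 and 12.3, followed by Fam26f (Calhm6), a channel of the CALHM family, at 23.5, 212 and 23.6.

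**Figure D3:**
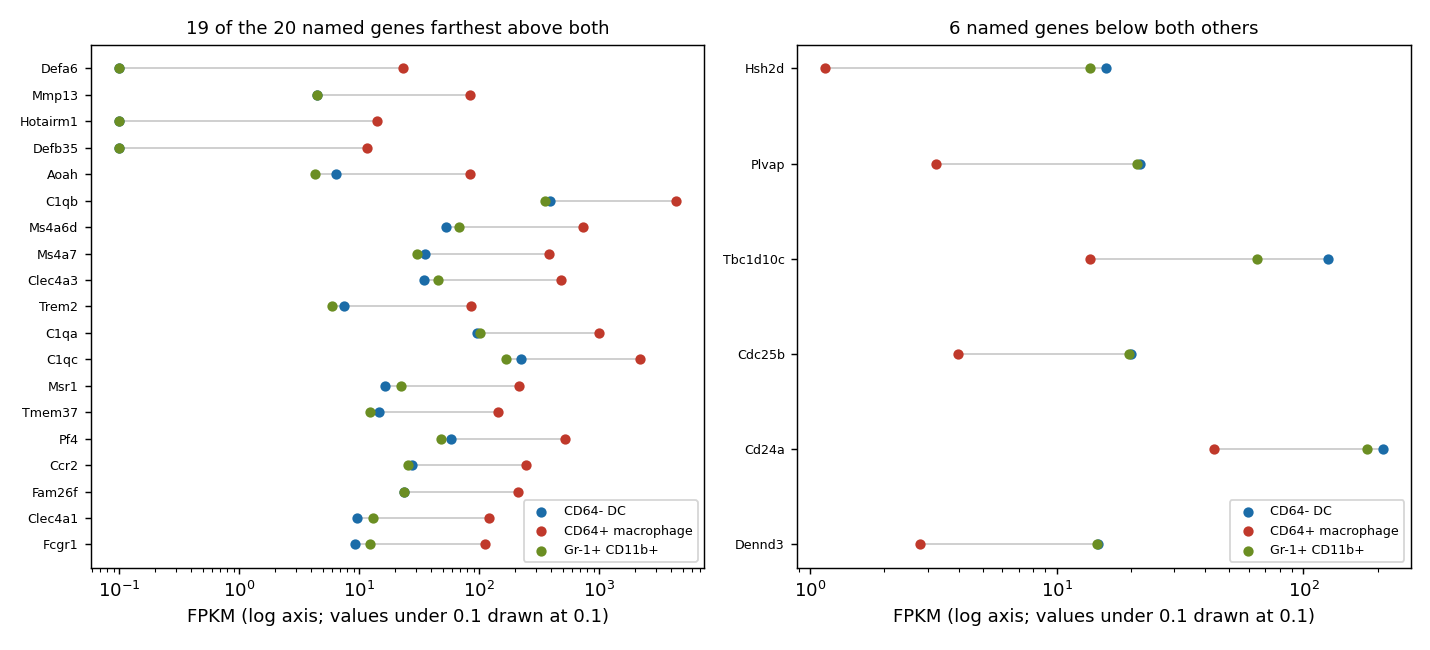
FPKM on a log axis of 19 of the 20 named genes farthest above both other populations (left) and of the 6 named genes below both (right), with values under 0.1 drawn at 0.1. Mmp13, near the top, is at 4.47 and 4.48 outside macrophages and 83.3 in them. Defa6, Defb35 and Hotairm1 are at or near 0 outside macrophages.

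The other populations were listed at a part of the macrophage level for nearly all named members. In Gr-1+ cells, only 81 of the 135 lay above the silent level of 9.67 FPKM, beside 131 above that of DC. Shares of the rest cannot be told from background. Among the 132 named members listed above 0 in all libraries, the median level in DC was 14.02% of that in macrophages (quartiles 10.9% and 19.4%), and in Gr-1+ cells 12.5% (quartiles 10.1% and 17.0%). The rule sets the upper end at about 25%. Among the 68 named members at 100 FPKM or more, the lowest share was 5.21% in DC (Apoc2) and 4.85% in Gr-1+ cells (Ocstamp). The 10 named members at 1000 FPKM or more ranged from 8.71% to 24.2% in DC and from 7.64% to 17.1% in Gr-1+ cells. Whether macrophages or their RNA were present in the other sorts was not tested.

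**Figure D4:**
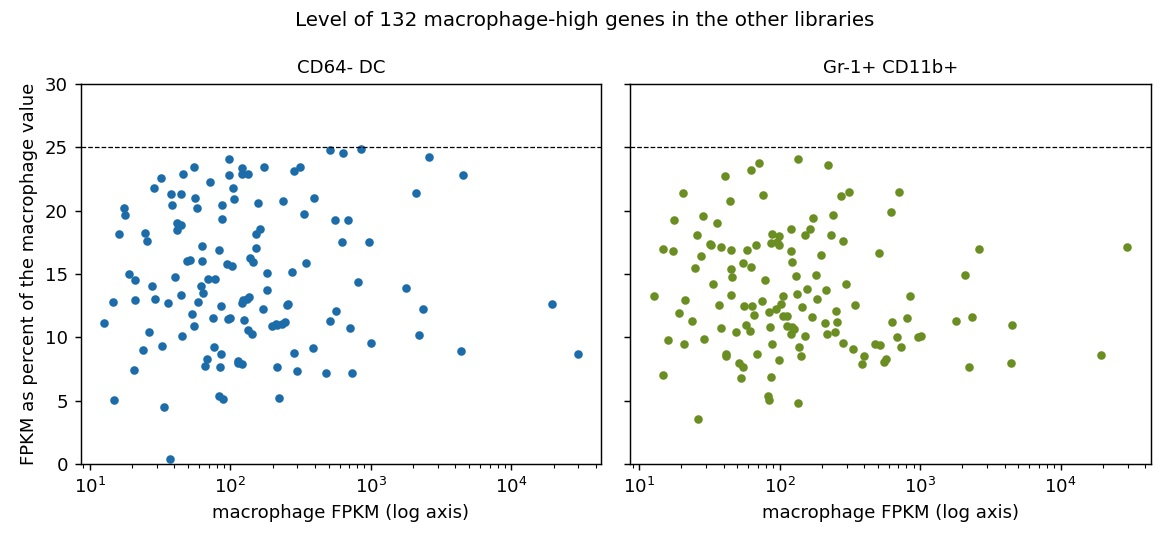
FPKM in DC (left) and in Gr-1+ CD11b+ cells (right) as a percent of the macrophage value, against macrophage FPKM on a log axis, for the 132 named members listed above 0 in all libraries. The dashed line at 25% is about where the rule ends. Medians are 14.02% and 12.5%. Members at or below a library's silent level are drawn too, and their share there cannot be told from background.

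Markers of other cell types were given the same comparison. Of 16 monocyte markers, 4 were members: Ccr2, F13a1, Ms4a6c and F10. Ly6c2, the antigen of inflammatory monocytes, was similar in DC and macrophages and lower in Gr-1+ cells, at 878, 782 and 320 FPKM, while Chil3 was 28.8, 566 and 198. The 16 markers summed to 2507 in DC, 5195 in macrophages and 3144 FPKM in Gr-1+ cells, and 0 were listed at 0. Of 26 neutrophil markers compared, 23 were lower in macrophages than in Gr-1+ cells, and the 28 in the tables summed to 2013, 5863 and 195237 FPKM, with 4 listed at 0 in macrophages. The 1 member was Prtn3, a granule protease of neutrophil precursors, at 0.146, 37.4 and 4.69, whereas the companion genes Elane (0 in all libraries) and Mpo (0, 0.250 and 0.169) were at or near 0. Of 24 dendritic cell markers, 4 were lower and 1 was higher than in DC. Flt3, the growth factor receptor of dendritic cells, was 39.9, 5.42 and 2.52 FPKM. All 16 B cell markers and 9 of 10 plasma cell markers were lower in macrophages than in DC. The part of these cells in the members' values was not tested.

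Genes of antigen presentation gave calls in both directions. Of 11 genes of MHC class II and its cofactors, 10 were higher than in Gr-1+ cells, while 0 were higher and 4 were lower than in DC, with median differences of 0.52 from DC and 3.36 from Gr-1+ cells. H2-Ab1, a class II chain, was listed at 16331, 29149 and 2574 FPKM. The 4 that were lower than in DC were H2-Eb2, H2-DMb2, H2-Oa and H2-Ob, and H2-DMb2, a chain of the peptide exchange factor, was listed at 890, 139 and 19.3. The DC library held B cell transcripts, as given above, and their part in these 4 calls was not tested. The lists for MHC class II (11 genes), costimulation (22), glycolysis (25), the cell cycle (26), arginine, itaconate and tryptophan metabolism (17) and housekeeping (16) had 0 genes higher than in both others. At the share of 0.86% over all genes, lists of this size would mostly have none, so these counts say nothing about the lists.

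**Figure D5:**
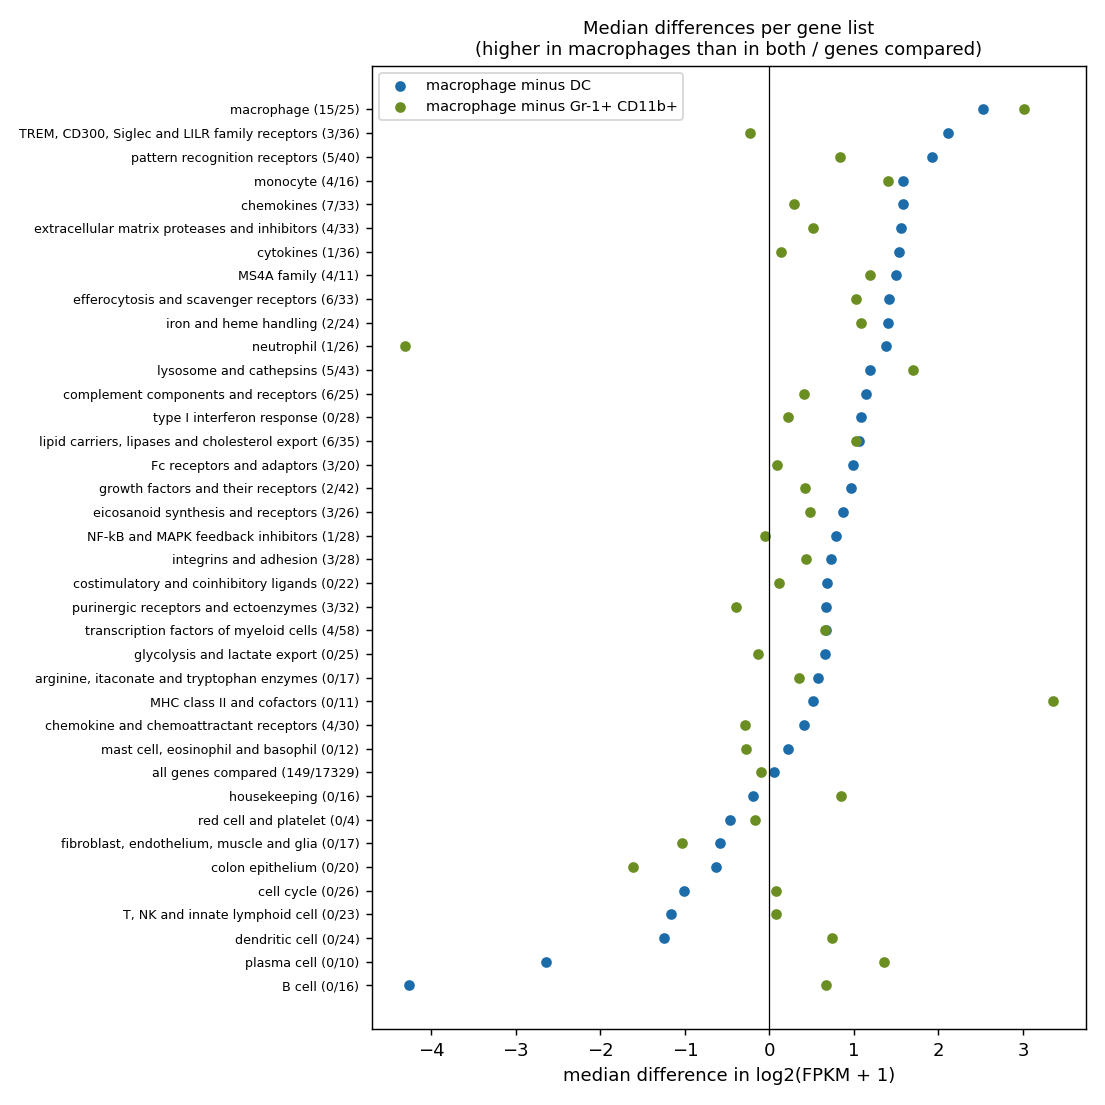
Median difference in log2(FPKM + 1) over the compared genes of each list, for macrophages minus DC (blue) and macrophages minus Gr-1+ CD11b+ cells (green), ordered by the first. Numbers in parentheses are genes higher in macrophages than in both others and genes compared. The macrophage list has medians of 2.53 and 3.01, and all genes have 0.05 and -0.10.

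Members often lay next to each other in the genome. Of 134 named members with a position, 32 (23.9%) had the start of another member within 100 kb of their own, while 2.52% of 15202 named genes compared had a member in that range. The 32 formed 14 clusters. They included C1qb, C1qc and C1qa with no other compared gene between them (chr4:136880129-136898803), Ccl7, Ccl12 and Ccl8 around Ccl11 (chr11:82045712-82116799), and Ms4a6c, Ms4a6b and Ms4a6d around Ms4a4d (chr19:11469366-11604849). Ccl11, an eosinophil attractant inside its cluster, was level across the libraries at 32.6, 24.9 and 34.0 FPKM. Others were C3ar1, Clec4a1 and Clec4a3 (chr6:122847138-122969875), Mmp13 and Mmp12 (chr9:7272514-7369499), Apoc2 and Apoe (chr7:19671579-19699188), and F7 and F10 (chr8:13026034-13056676). Copies of a family lie together in most of these, and fragments shared between near-identical copies may have been assigned to either.

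The RefSeq table held 129 promoters, each 250 bases before to 50 after a start, for 97 of the higher members. The PU.1 letters GAGGAAGT, on either strand, were in 15 of them (11.6%), beside 3.20% of all 32851 promoters and 3.24% of the 16012 promoters of compared genes. They included the windows of C1qc, Ctsc and Pf4 printed above, and those of Ctss, Mmp12, Ptgs1 and P2rx7. The AP-1 letters TGANTCA were in 23 (17.8%), beside 7.81% and 6.95%, and included those of Trem2 and Mmp13 printed above and of C3ar1, Ms4a7 and Folr2. The central base was free in all these counts, so stretches without the usual C or G there are included. The interferon-stimulated response element, searched as GAAA, any 2 bases, GAAA, was in 7.75% of member promoters, beside 3.44% of all and 3.37% of compared genes. The C/EBP letters TTGCNNAA (13.2% beside 10.8% and 10.1%) and the MAF letters TGCTGAC (6.20% beside 4.67% and 4.25%) were nearer to those shares. NF-kB letters, GGGA, any base, TTTCC, were in 1 promoter (0.775%), beside 0.411% and 0.462%. The E-box of lysosomal genes TCACGTGA was in 2 (1.55%), beside 0.974% and 1.48%, so it was close to the share of compared genes. CRE letters TGACGTCA were in 0 of 129, beside 1.79% and 2.56%. The PU.1 and AP-1 letters do not contain one another. Windows of the same gene can overlap, so a site can count more than once, as in Arhgef10l for the AP-1 letters. A match is a description of the letters and not a bound site, and no match says only that these letters are not in this window.

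A few members were listed at or near 0 outside macrophages. Defa6, an antimicrobial peptide of Paneth cells, was listed at 0.0101, 23.2 and 0 FPKM, and Defb35 at 0, 11.7 and 0. The long noncoding RNA Hotairm1 was listed at 0, 14.1 and 0. Of the 149 higher members, 12 were listed at 0 in both other libraries, and 11 had a longest transcript under 300 nt. The largest values among those were microRNA hairpins of 108 to 121 nt, and a hairpin's FPKM in a library of full-length cDNA is no measure of the mature microRNA. Mir223, the hairpin of a microRNA known from neutrophils and other myeloid cells, was listed at 0, 1157 and 0 FPKM. Mir142b was the reverse, at 264 in DC, 0 in macrophages and 1892 FPKM in Gr-1+ cells. Their mature sequences are shown to identify the loci, with the seed, bases 2 to 8, in capitals, from RefSeq on GRCm38.p6 (chrX:96242842-96242864 and chrX:96242884-96242905, plus strand, and chr11:87756906-87756925, minus strand), and no seed is shared among the 3.
miR-223-5p: cGUGUAUUugacaagcugaguug
miR-223-3p: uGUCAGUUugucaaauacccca
miR-142b: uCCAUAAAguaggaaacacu

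Only 10 genes were lower in macrophages than in both others, and 6 of them had a gene name. Cd24a, a glycosylated surface antigen, was listed at 209 in DC, 43.4 in macrophages and 181 FPKM in Gr-1+ cells. Tbc1d10c, an inhibitor of Ras and calcineurin signalling in lymphocytes, was listed at 125, 13.7 and 64.8. Hsh2d, an adaptor of haematopoietic cells, was the farthest below both of the 6, at 15.8, 1.15 and 13.6. Plvap, a protein of endothelial fenestrae, was listed at 21.8, 3.23 and 21.2. The 17 fibroblast, endothelial, muscle and glial markers compared were lowest in macrophages for 14 genes, and the 19 in the tables summed to 395, 220 and 393 FPKM, and the 20 epithelial markers to 1074, 655 and 2207 with 18 lowest in macrophages. Over all 17329 genes compared, 3265 were lowest in macrophages. The 16 B cell markers summed to 4254, 199 and 102 FPKM. The part of such cells in the values of Plvap, Cd24a, Tbc1d10c and Hsh2d was not tested. Cdc25b, a cell cycle phosphatase, was listed at 19.9, 3.98 and 19.6, and Dennd3, a Rab exchange factor, at 14.7, 2.78 and 14.5. The other 4 were 2 small nucleolar RNAs and 2 microRNA hairpins listed at 0 in macrophages. Of the 6 named genes, 4 passed under all 3 other scalings.

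The limit of 2 had members on both sides at close values. Just inside the upper limit lay Fcrlb, Ccl7 and P2rx7, with smaller differences of 2.001, 2.002 and 2.003. Just outside lay Tnfsf13, a B cell survival cytokine, at 3.82, 26.8 and 5.95 FPKM, the lysosomal protease gene Ctsl at 55.4, 252 and 62.4, and Depdc7 at 2.34, 16.5 and 3.40. Just inside the lower limit lay Dennd3, Cd24a and Cdc25b, at -2.04, -2.04 and -2.05. Just outside it lay Acap1, Il16 and Ppp1r16b, at -1.99, -1.98 and -1.89.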

How the data were processed

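RNA of 3 sorted colonic myeloid populations, 1 library each, was extracted with an RNeasy kit, copied into full-length cDNA with SMART-Seq HT and made into Nextera libraries, per the labels' protocols. The authors deposited 1 FPKM value per gene symbol and library; the headers do not name the unit, which was taken from the values and the tools listed. Per the submitters' processing notes, which state neither role nor order, the tools were Cufflinks 2.2.1, TopHat2 2.0.13, SAMtools 0.1.19 and Bowtie2 2.2.3, on mm10. Annotation, strandedness, filters and pooling of mice are not given in the sources used here, so overlapping or antisense genes and near-identical copies are uncertain.

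Values were used as deposited, with a pseudocount of 1 before log2, which understates differences of low genes. The size rule was a difference of 2 and a floor of 10 FPKM, over genes at 1 FPKM or more in any library. Single libraries allow no test. Positions and lengths came from GENCODE M21, where 23310 symbols were found, and another 665 through RefSeq synonyms. Depth was read from single-transcript genes longer than 800 nt: 74.7%, 67.2% and 69.1% of low values (DC, macrophage, Gr-1+ CD11b+) lay within 0.2 of a whole number of fragments, where an even spread gives 40%. The size rule was run on simulated data with counting error only. It called all 50 genes raised 8-fold, all 50 lowered 8-fold and 0 of those changed 2-fold. This checks the calculation and not the noise of these libraries. The members and the 37 gene lists were chosen with earlier results of these data known.

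Genes were named by rule: the 4 markers given for the population, the 20 farthest from both others and the 10 most abundant in each direction, up to 6 members of each list by difference and 3 by level, and the 3 nearest each side of the limit. Symbols that are codes were counted. Some genes named by this rule are not reported here. Role groups, promoters shown, microRNAs, further members and genes that are not members were chosen after their values were seen. The alternatives were pseudocounts of 0.1 and 10, no floor or a floor of 30 FPKM, limits of 1 and 3 and 3 scalings; subtracting the silent level and leaving out symbols under 300 nt were added after the data were seen. Python 3.11.15, NumPy 2.4.6, pandas 2.3.3 and matplotlib 3.10.9 were used.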

Additional observations from a re-analysis of the deposited data

How the results depend on the processing

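The 149 genes higher and 10 genes lower in macrophages became 73 and 4 with a pseudocount of 10, 506 and 90 with a limit of 1, and 35 and 4 with a limit of 3. The 10 lower genes became 6 with a floor of 30 FPKM, 17 with equal 75th percentiles and 6 without symbols under 300 nt. The other settings gave 105 to 169 higher genes, of which equal sums gave 105 and equal 75th percentiles 111. Of the 135 named higher members, 67 passed under all 3 scalings and 22 under every setting, and of the 6 named lower genes, 4 and 0. The limit of 3 alone kept 25 of the 135, so the 22 are mostly set by that limit. In both directions 0 reversed, which was fixed in advance. Members differ by 2 or more, and the largest shift of the median over all genes by scaling was -0.45. The pseudocount damps that median through low genes. Equal 75th percentiles multiplied macrophage values by 0.928 and those of Gr-1+ cells by 1.41, so well-expressed members shifted by more than the median. The 22 included C1qa, C1qb, C1qc, Fcgr1, Ccr2, Cx3cr1, Trem2 and Mmp13. In the shallowest library, Gr-1+ CD11b+, 3 fragments on 1 kb are 1.35 FPKM, so levels there below this cannot be ordered. This limit covers counting error only. The silent level there was 9.67 FPKM, and levels up to it cannot be told from background. No paired analysis was possible because each population has 1 library.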
